A study of Mus musculus with 20 samples.

Results

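The tripartite motif (Trim) family was followed here through lipopolysaccharide (LPS) responses of mouse macrophages that carry or lack the Toll-like receptor adapters MyD88 and TRIF. A gene was a member when a non-control probe of the array carried a gene name that starts with Trim and a number. By that rule the family held 67 genes (101 probes) of the 30120 genes on the array. Of these, 57 had a probe whose signal exceeded background (in either channel) on 3 or more arrays and entered the tests, among 21963 genes in all. The other 10, which were Trim10, Trim15, Trim42, Trim50, Trim52, Trim54, Trim63, Trim66, Trim67 and Trim72, were not tested.

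TRIM proteins share an N-terminal module of a RING finger, B-boxes and a coiled coil, and most act as ubiquitin or SUMO ligases. In macrophages, LPS is sensed by TLR4, which signals through MyD88 to early NF-kB activation and through TRIF to IRF3 and interferon-beta as well as to NF-kB. Secreted interferon-beta then acts on the cells through ISGF3, which binds the interferon-stimulated response element (ISRE) of its target genes. Several TRIM genes are known interferon targets, and several TRIM proteins act back on the sensors, adapters and kinases of these pathways.

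The cells were bone marrow-derived macrophages of C57BL/6 background, grown for 6 days with M-CSF from L929-conditioned medium, from wild-type mice, mice lacking TRIF, mice lacking MyD88 and mice lacking both adapters (double-KO). Each genotype was measured at 1, 2, 4, 8 and 16 h of 200 ng/mL Salmonella LPS with time-matched untreated cells of that genotype, in serum-free medium, as the reference. Each of the 20 two-colour arrays held 1 such pair, so that every log2 ratio below is LPS over untreated, and a genotype has 5 arrays, 1 per time point. LPS RNA was in Cy5 except on the MyD88-KO 2 h array, where the dyes were swapped and the sign was turned. Because the replicate numbers mark time points, the spread within a genotype holds the time course, the labels name no separate cultures of 1 condition, and p-values measure only the spread between these arrays.

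The knockouts were checked first. Ticam1, which encodes TRIF, had an untreated log2 level of 7.28 ± 0.04 (SD, n = 5 arrays) in double-KO cells, against 10.65 ± 0.19 (SD, n = 5) in wild-type and 10.81 ± 0.28 (SD, n = 5) in the TRIF-KO-labelled cells. The probe thus showed a loss in double-KO cells and none in the cells labelled TRIF-KO. The label of the latter is not borne out by this transcript, but a transcript level does not show whether TRIF protein was made. Whether both groups carry the same Ticam1 allele is not given in the sources used here, and these cells are called TRIF-KO-labelled throughout. The Myd88 probe read 14.11 ± 0.15 (SD, n = 4 arrays with untreated RNA in Cy3) in MyD88-KO, 14.01 ± 0.13 (SD, n = 5) in double-KO and 14.40 ± 0.41 (SD, n = 5) in wild-type cells, so it showed no loss in any group. Whether this probe lies in the deleted part of Myd88 was not determined. The loss of Myd88 is therefore not borne out by this transcript in MyD88-KO or double-KO cells, and both names follow the labels. Between 52.8% and 69.6% of the 43020 non-control spots were well above background in a channel. Macrophage markers such as Csf1r and Adgre1 were above background on all 20 arrays, with summed log2 levels of 19.5 to 20.1 in every genotype. The summed neutrophil markers were at 14.13 to 14.52 in MyD88-KO cells against 13.3 to 13.7 in wild-type cells, with 12.9 to 14.4 over the other two genotypes, and their part in the results was not tested. Summed T cell markers were at 10.6 to 11.3, B cell markers at 8.87 to 9.58, fibroblast markers at 7.97 to 9.27 and mast cell markers at 6.62 to 7.06, and the summed dendritic cell list was at 17.0 to 17.4. That last sum came almost wholly from Siglech (16.98 to 17.41), while Flt3 was at 7.09 to 8.34 and Zbtb46 at 7.03 to 9.14.

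Some members carry the ISRE letters, GAAA followed after any 2 bases by GAAA, on either strand, within 250 bases before the annotated start. RefSeq promoters (GRCm38.p6) were matched by symbol for 51 of the 67 members, and 5 of those 51 (9.80%) held the motif, against 3.46% of all genes and 2.98% of all promoters. These 5 sequences are shown because 4 of them come from the chromosome 7 genes described next, and the capitals mark the motif as it reads on the gene's strand. They run 5′ to 3′ along the gene.
Trim5: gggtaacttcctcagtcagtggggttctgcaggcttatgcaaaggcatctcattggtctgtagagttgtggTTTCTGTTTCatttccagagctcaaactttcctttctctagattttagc
Trim12c: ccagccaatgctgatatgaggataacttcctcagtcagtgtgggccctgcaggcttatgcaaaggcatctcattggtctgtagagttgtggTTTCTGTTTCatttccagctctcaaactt
Trim30a: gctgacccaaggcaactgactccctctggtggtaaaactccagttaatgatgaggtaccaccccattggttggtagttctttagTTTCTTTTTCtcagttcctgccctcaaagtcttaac
Trim30d: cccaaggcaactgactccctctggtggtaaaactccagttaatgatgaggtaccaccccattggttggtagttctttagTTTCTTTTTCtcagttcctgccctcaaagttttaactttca
Trim26: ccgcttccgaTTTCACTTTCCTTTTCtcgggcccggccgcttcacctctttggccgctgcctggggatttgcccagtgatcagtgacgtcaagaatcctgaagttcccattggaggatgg

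The Trim5 stretch is chr7:104288107-104288226 and that of Trim12c is chr7:104353350-104353469, both on the minus strand, and they share an unbroken run of 63 of 120 bases. The Trim30a stretch is chr7:104465194-104465313 and that of Trim30d is chr7:104507850-104507969, also on the minus strand, with a shared run of 109 bases. The motif begins 49 bases before the start of Trim5, 29 before that of Trim12c, 36 before that of Trim30a and 41 before that of Trim30d. Trim26, at chr17:36836976-36837095 on the plus strand, holds overlapping copies that begin 160 and 154 bases before its start. A second motif, the kappa-B site bound by NF-kB, was found in 2 of the 51 members (3.92%), Trim28 and Trim46, against 8.23% of all genes. A match describes letters and is not a shown binding site.

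The largest mean responses among the 57 tested members were those of Trim13, with a log2 ratio of 3.16 in TRIF-KO-labelled cells, and of Trim30c, with 2.93 in MyD88-KO cells. Trim30c lies in a group of neighbours on chromosome 7, here called the Trim5/Trim30 group, of which 14 were tested. It holds PRY-SPRY genes, several of them known as antiviral or interferon-inducible, the pseudogene Trim30e-ps1 and the NHL-class Trim3. Means per genotype are given as fitted estimates with SE and without a test, since a dye effect does not cancel in them.

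**Figure D1:**
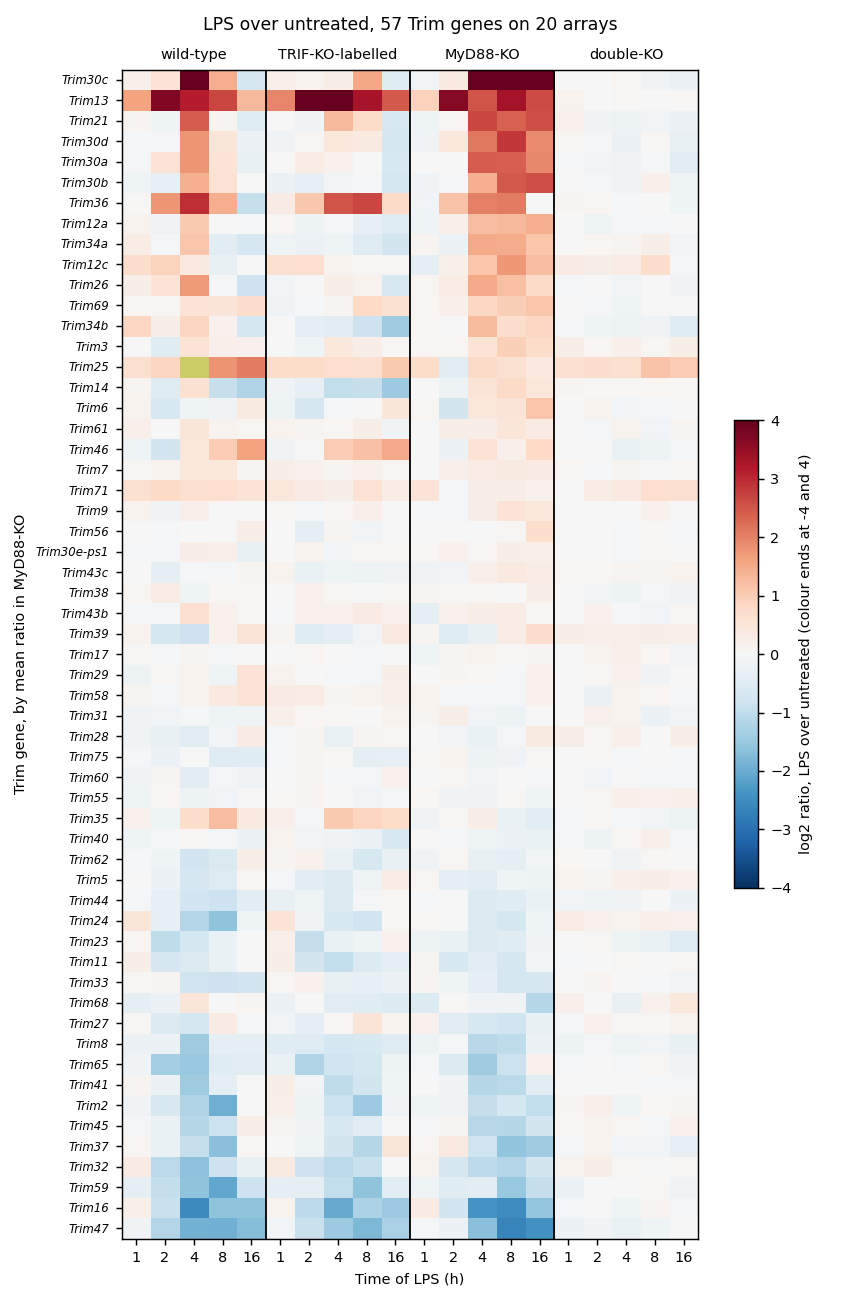
Log2 ratio of LPS over untreated (colour, ends at -4 and 4) for the 57 tested Trim genes (rows, ordered by mean ratio in MyD88-KO cells) on the 20 arrays (columns, genotype and time in h); the missing value is coloured yellow. Trim30c and Trim13 head the order with mean log2 ratios of 2.93 and 2.61 in MyD88-KO cells, and Trim47 ends it at -1.41.

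Sorted by mean response in MyD88-KO cells, the members ran from Trim30c (log2 ratio 2.93 ± 0.61, SE) over Trim13 (2.61 ± 0.26) and Trim21 (1.51 ± 0.35) to Trim59 (-0.72 ± 0.16), Trim16 (-1.38 ± 0.23) and Trim47 (-1.41 ± 0.23). Sorted by the TRIF-KO-labelled cells, the highest were Trim13 (3.16 ± 0.26), Trim36 (1.47 ± 0.30) and Trim25 (0.76 ± 0.16), and the lowest were Trim14 (-0.77 ± 0.21), Trim47 (-1.11 ± 0.23) and Trim16 (-1.12 ± 0.23). In each order the last pair, Trim16 and Trim47, lay within their standard errors of each other. Thus Trim13, Trim16 and Trim47 stood at the ends of both orders, while the Trim30 genes headed 1 of them only. In MyD88-KO cells 7 of 57 members had a mean log2 ratio above 1 and 2 were below -1. In TRIF-KO-labelled cells these counts were 2 and 2, in wild-type cells 4 and 3, and in double-KO cells 0 and 0. No share of all genes past these limits was taken, so the counts are not read as a trait of the family. Over all genes, the SD of the ratios was 0.22 to 0.95 on MyD88-KO arrays and 0.13 to 0.2 on double-KO arrays. It was 0.27 to 0.83 on TRIF-KO-labelled and 0.31 to 0.88 on wild-type arrays.

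**Figure D2:**
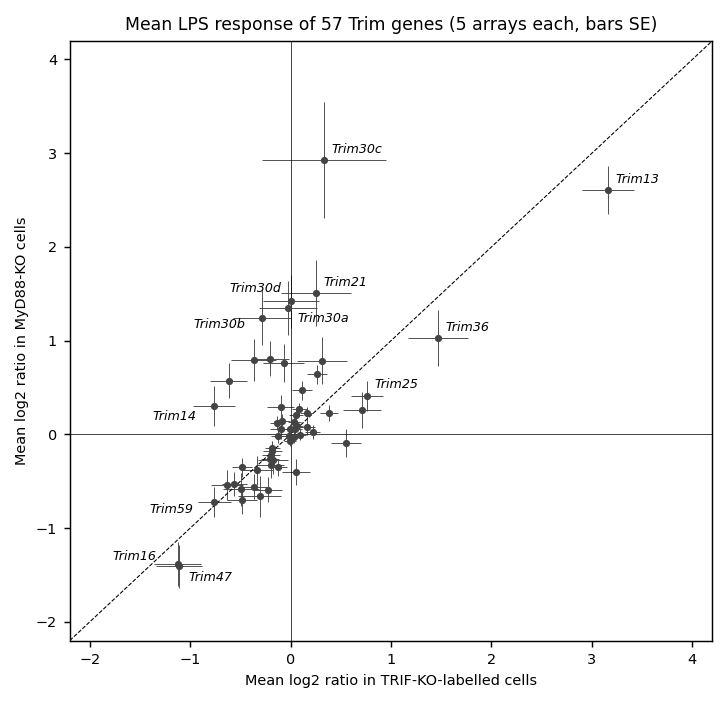
Mean log2 ratio of LPS over untreated in TRIF-KO-labelled cells (x) and in MyD88-KO cells (y) for the 57 tested Trim genes. Each point is the fitted mean of 5 arrays, and bars are its SE, pooled over all genotypes. The dashed line marks equal responses. The Trim30 genes and Trim21 lie above the line, with Trim30c at 0.33 and 2.93, and Trim13 lies near it at 3.16 and 2.61.

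Trim25, the ligase that ubiquitinates RIG-I, entered the second order with values that need care. Its probe read 0.65 to 1.15 on the 5 double-KO arrays, where the means of the other members lay between -0.21 and 0.40, and -0.46 on the dye-swapped MyD88-KO 2 h array against 0.41 to 0.77 on the other MyD88-KO arrays. In wild-type cells its ratio was 0.63, 0.86, 1.80 and 2.05 at 1, 2, 8 and 16 h. The 4 h value was missing as an outlier spot, so the fit used 4 wild-type arrays. The other kept probe of Trim25 gave 0.44 for MyD88-KO minus double-KO, where this one gave -0.42, so no direction is drawn for this gene.

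Comparison of MyD88-KO with double-KO cells asks what LPS does to the family through TRIF. Trim30c, Trim30d, Trim30a, Trim13 and Trim69 rose relative to double-KO cells, and Trim16, Trim47, Trim32 and Trim45 fell. These are 9 of 57 members called, against 10.1% of all genes tested (limma, adjusted p under 0.05 over all genes), and 5 were higher, against a background of 5.73%, and 4 lower, against 4.38%. The median difference over the 57 members was 0.01, beside -0.02 over all genes. The comparisons with double-KO cells share those 5 arrays, so their values are set side by side and not counted as independent. Without the replicate block 1 member was called, Trim13, with Trim30c, Trim30d and Trim30a at adjusted p = 0.15, 0.14 and 0.13. With slide as a random block 1 was called and with the groups compared alone 0, while 23 were called with scan day as a fixed block. MyD88-KO is the only genotype scanned on both days, so the day term cannot be separated from its change between early and late times.

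Trim30c, a close paralog of the Trim30a repressor of NF-kB signalling, was probed at chr7:111530579-111530638 (mm9). In MyD88-KO cells its log2 ratios were -0.11, 0.38, 4.72, 5.27 and 4.39 at 1, 2, 4, 8 and 16 h. In wild-type cells they were 0.22, 0.57, 4.49, 1.46 and -0.68, and in TRIF-KO-labelled cells 0.22, 0.15, 0.25, 1.53 and -0.49. Double-KO values stayed between -0.23 and 0.08. The 3 late MyD88-KO arrays thus stood above every array of the other genotypes except the wild-type 4 h array. The mean difference from double-KO was 2.99 ± 0.87 (SE, 7.92-fold, limma adjusted p = 0.046), and 4 of 5 MyD88-KO arrays were above 0.

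Trim30d (chr7:111620805-111620864, mm9) followed the same course at a smaller size. Its MyD88-KO ratios were -0.14, 0.41, 2.10, 2.83 and 1.91, its wild-type ratios -0.09, -0.07, 1.76, 0.49 and -0.22, and its TRIF-KO-labelled ratios -0.13, 0.05, 0.45, 0.36 and -0.71. Double-KO arrays lay between -0.30 and 0.09. From 4 h on, MyD88-KO exceeded each other genotype at the same time. The difference from double-KO was 1.51 ± 0.40 (SE, limma adjusted p = 0.036).

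Trim30a itself (chr7:111557578-111557637, mm9), which restrains TLR signalling by acting on the TAB2 and TAB3 adaptors, gave MyD88-KO ratios of 0.02, 0.01, 2.41, 2.40 and 1.92. Wild-type cells gave -0.05, 0.57, 1.75, 0.55 and -0.30, and TRIF-KO-labelled cells -0.01, 0.30, 0.17, 0.003 and -0.60. Double-KO values lay between -0.46 and -0.05. The MyD88-KO rise began at 4 h and lasted to 16 h, whereas the wild-type values returned to near or below 0 by 16 h. The difference from double-KO was 1.51 ± 0.41 (SE, limma adjusted p = 0.038).

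None of the other 11 tested members of the chromosome 7 group passed, and their differences ran from -0.49 (Trim68) and -0.40 (Trim5) to 1.62 (Trim21). Trim21, the cytosolic antibody receptor, had ratios of 2.67, 2.36 and 2.59 at 4, 8 and 16 h in MyD88-KO cells and of 2.42, 0.11 and -0.47 in wild-type cells. Its difference from double-KO was 1.62 ± 0.50 (SE, limma adjusted p = 0.051). Trim30b differed by 1.28 ± 0.41 (SE, adjusted p = 0.058), with LPS-channel signal above background on 0 of 5 double-KO arrays, so that its double-KO ratios are not measured ones. Trim12a, of the mouse group related to primate TRIM5, differed by 0.87 ± 0.26 (SE, adjusted p = 0.05), and Trim34a and Trim34b by 0.73 and 0.78 (adjusted p = 0.13 and 0.071). Of the 14 tested members of this group 3 were called, all higher, with a median of 0.76, beside 5.73% of all genes higher and a median of -0.02. Of the 5 members with the ISRE letters, Trim30a and Trim30d passed, while Trim12c, Trim26 and Trim5 had differences of 0.49, 0.83 and -0.40 that did not, and Trim30c passed with no match in its window.

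**Figure D3:**
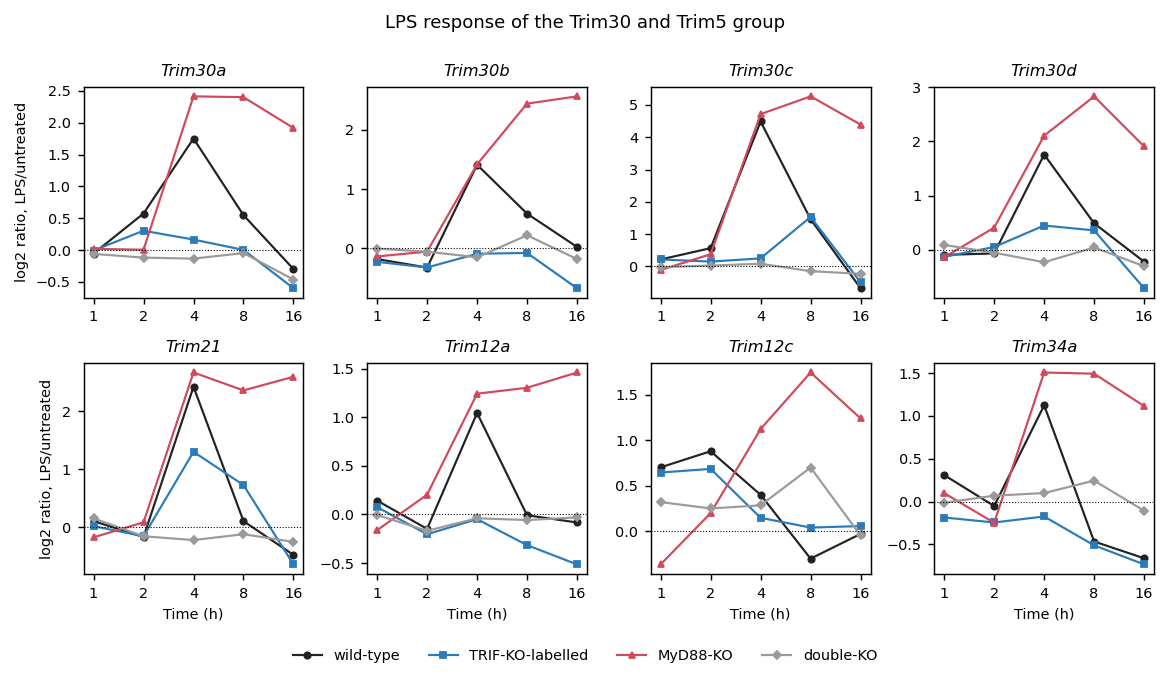
Log2 ratio of LPS over untreated (y) at 1, 2, 4, 8 and 16 h (x, equal spacing) for 8 genes of the Trim5/Trim30 group, 1 array per point, by genotype. In MyD88-KO cells the values stay high from 4 to 16 h (Trim30c 4.72, 5.27 and 4.39), while wild-type values are high at 4 h (Trim30c 4.49) and lower later.

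Trim30 genes are close paralogs, and whether their probes read each other's transcripts was not tested. The calls depended on the time points. Without the 8 h arrays 0 members were called, and without the 4 h arrays or the 16 h arrays Trim13 alone remained. On scan day 2 alone, which holds 4, 8 and 16 h of both genotypes, 22 members passed, with Trim30c at 4.89 ± 0.21 (SE), Trim30d at 2.44 and Trim30a at 2.46 (limma adjusted p = 0.0026, 0.0047 and 0.0029, a setting chosen after seeing the data). With slide as a fixed block 0 members passed, and no slide holds both genotypes at the same time point.

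Direct comparison of the single knockouts gave no call. Across all 5 time points 0 of 57 members and 0 of all genes (0%) passed in TRIF-KO-labelled minus MyD88-KO by limma, with 15 members and 4096 genes at an unadjusted p under 0.05. Trim30c had a difference of -2.60 ± 0.87 (SE, adjusted p = 0.14), Trim30b -1.53, Trim30d -1.42, Trim30a -1.38 and Trim21 -1.25. Trim34b, Trim34a, Trim14 and Trim12a had -1.19, -1.16, -1.07 and -1.01 (adjusted p = 0.12 for each of these 4). In TRIF-KO-labelled cells the highest mean among these genes was 0.33, that of Trim30c.

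With 4, 8 and 16 h alone, a setting chosen after seeing the data, 15 of 57 members passed in this comparison, against 10.7% of all genes. All 3 of these MyD88-KO arrays were scanned on day 2 and all TRIF-KO-labelled arrays on day 1, so scan day and genotype cannot be told apart here. Over all 5 time points with scan day as a fixed block, the difference was -0.11 for Trim30c, -0.04 for Trim30a and -0.26 for Trim30d, and 1 member and 602 genes had an unadjusted p under 0.05. Of the 15 members 12 were lower and 3 higher in TRIF-KO-labelled cells, and 10 of the 14 chromosome 7 members were lower. Trim30c was lower by -4.36 ± 0.90 (SE, limma adjusted p = 0.022), Trim30b by -2.43, Trim30a by -2.39, Trim30d by -2.25 and Trim21 by -2.07. Trim14, which supports MAVS signalling, was at -1.70 ± 0.35 (adjusted p = 0.023). Higher in TRIF-KO-labelled cells were Trim35 (1.01), Trim27 (0.83) and Trim46 (0.71). On scan day 1, which holds only 1 and 2 h of both genotypes, Trim30c differed by 0.05 and Trim30a by 0.14, so no difference was visible at those times.

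Trim13, an endoplasmic reticulum ligase linked to autophagy, was the only member called against double-KO cells in all 3 signalling genotypes. Its log2 ratios at 1, 2, 4, 8 and 16 h were 1.60, 3.69, 3.14, 2.66 and 1.30 in wild-type cells. In TRIF-KO-labelled cells they were 1.94, 4.09, 4.01, 3.29 and 2.46, and in MyD88-KO cells 0.91, 3.66, 2.53, 3.34 and 2.59. Double-KO arrays lay between -0.01 and 0.15, so that no double-KO value overlapped those of another genotype. The peak was at 2 h in each of these 3 genotypes.

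Relative to double-KO, Trim13 rose by 2.42 ± 0.36 (SE, 5.37-fold) in wild-type, by 3.11 ± 0.36 (8.62-fold) in TRIF-KO-labelled and by 2.55 ± 0.36 (5.87-fold) in MyD88-KO cells. The limma adjusted p-values were 0.0023, 0.00056 and 0.0031, with 5 of 5 arrays above 0 in each genotype. A second probe of Trim13 gave 2.56, 3.02 and 2.43. TRIF-KO-labelled minus MyD88-KO was 0.55 ± 0.36 (SE) and did not pass. These calls held without the replicate block and with slide as a random block. They were lost with slide as a fixed block, and in wild-type and MyD88-KO cells with the groups compared alone, and with slide fixed the wild-type difference turned to -1.52 ± 1.06 (SE).

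Trim36, a COS-class member that binds microtubules, had a later course. Its ratios were 0.04, 1.77, 2.94, 1.44 and -0.93 in wild-type cells, 0.32, 1.09, 2.50, 2.66 and 0.75 in TRIF-KO-labelled cells and -0.10, 1.15, 2.01, 2.09 and -0.01 in MyD88-KO cells. The double-KO arrays lay between -0.18 and 0.11. All 3 signalling genotypes were high at 2 to 8 h and none had its highest value at 16 h. Trim36 passed against double-KO in TRIF-KO-labelled cells alone (1.49 ± 0.42, SE, limma adjusted p = 0.049), and the differences between the signalling genotypes did not pass. This call was lost without the replicate block (adjusted p = 0.28), with slide as a random block (0.14), with scan day as a fixed block (0.18) and with the groups compared alone (0.13). TRIF-KO-labelled cells had 2 of 57 members called, Trim13 and Trim36, both higher, against 6.63% of all genes in either direction (3.56% higher, 3.07% lower), with a median of -0.08 beside -0.04 over all genes. Without the swapped MyD88-KO 2 h array, or without the 4, 8 or 16 h arrays in turn, Trim13 alone passed.

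Trim69, a PRY-SPRY gene, rose by little. Its MyD88-KO ratios were 0.08, 0.19, 0.83, 0.98 and 1.12, its wild-type ratios 0.08, 0.06, 0.54, 0.50 and 0.70, its TRIF-KO-labelled ratios -0.14, -0.04, 0.09, 0.80 and 0.62, and its double-KO ratios -0.17 to 0.02. The MyD88-KO values were the highest of the 4 genotypes from 2 h on, the 2 h value being that of the dye-swapped array. The difference from double-KO was 0.69 ± 0.14 (SE, limma adjusted p = 0.017), with LPS-channel signal above background on 3 of 5 double-KO arrays.

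Among the members that fell, Trim16 and Trim47 had the largest changes. Trim16, which links damaged endomembranes to autophagy, had ratios of 0.20, -0.88, -2.53, -1.60 and -1.60 in wild-type cells, 0.15, -1.06, -2.00, -1.25 and -1.46 in TRIF-KO-labelled cells and 0.34, -0.78, -2.41, -2.52 and -1.55 in MyD88-KO cells. Double-KO arrays lay between -0.16 and 0.10. From 2 h on, each signalling genotype was below every double-KO array. Relative to double-KO it fell by 1.25 ± 0.33 (SE) in wild-type and by 1.35 ± 0.33 (SE) in MyD88-KO cells on the log2 scale (limma adjusted p = 0.028 for each). The TRIF-KO-labelled difference of -1.09 did not pass.

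Trim47 had ratios of -0.15, -1.17, -1.90, -1.92 and -1.73 in wild-type cells, -0.12, -0.89, -1.45, -1.79 and -1.29 in TRIF-KO-labelled cells and -0.04, -0.24, -1.68, -2.66 and -2.43 in MyD88-KO cells. Double-KO values were -0.26 to -0.02. Of the 3 signalling genotypes, MyD88-KO cells were lowest at 8 and 16 h and nearest to 0 at 2 h. That 2 h value comes from the dye-swapped array, and a part of the dyes in it was not tested. The difference from double-KO was -1.20 ± 0.32 (SE) in wild-type and -1.24 ± 0.32 (SE) in MyD88-KO cells (limma adjusted p = 0.030 and 0.034). A second probe gave -1.21 and -1.20.

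Trim32, an NHL-class ligase that can ubiquitinate STING, was below 0 at 2, 4 and 8 h in the 3 signalling genotypes, and at 16 h in wild-type and MyD88-KO cells. Its ratios were 0.32, -1.07, -1.63, -0.82 and -0.29 in wild-type, 0.37, -0.82, -1.08, -0.88 and 0.004 in TRIF-KO-labelled and 0.15, -0.67, -1.06, -1.18 and -0.73 in MyD88-KO cells, against -0.01 to 0.25 in double-KO cells. It fell by 0.79 ± 0.21 (SE) on the log2 scale in both wild-type and MyD88-KO cells relative to double-KO (limma adjusted p = 0.031 and 0.038). Trim45 had ratios of -0.09, 0.11, -1.11, -1.14 and -0.73 in MyD88-KO, -0.07, -0.28, -1.13, -0.86 and 0.26 in wild-type, 0.10, -0.13, -0.63, -0.46 and 0.01 in TRIF-KO-labelled and -0.08 to 0.17 in double-KO cells. It fell by 0.66 ± 0.18 (SE) in MyD88-KO relative to double-KO (limma adjusted p = 0.042).

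**Figure D4:**
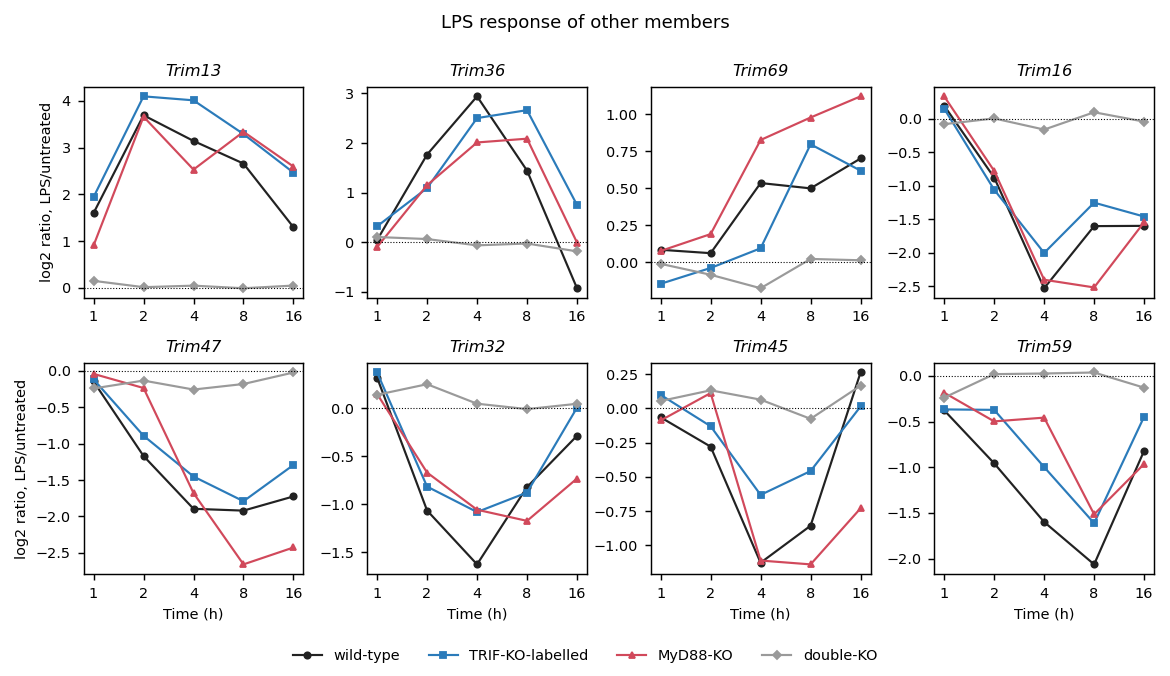
Log2 ratio of LPS over untreated (y) at 1, 2, 4, 8 and 16 h (x, equal spacing) for 8 members outside the chromosome 7 group, 1 array per point, by genotype. Trim13 peaks at 2 h in the 3 signalling genotypes (3.69, 4.09 and 3.66), and Trim16 and Trim47 are low from 4 h on.

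In wild-type minus double-KO, 10 of 57 members passed, against 12% of all genes, with 1 higher (background 5.91%) and 9 lower (background 6.12%). The median over the members was -0.08, beside -0.02 over all genes. Lower beside Trim16, Trim47 and Trim32 were Trim59, the membrane-bound regulator of ECSIT (-1.11 ± 0.23, SE, limma adjusted p = 0.010), the NHL-class Trim2 (-0.84), Trim65, a ligase for MDA5 (-0.73), and Trim5 (-0.45). The TIF1 class of chromatin co-regulators had 2 of 3 tested members lower, Trim24 at -0.77 and Trim33 at -0.43, and Trim28 at -0.28 did not pass. The calls rested on particular times: without the 4 h arrays or the 8 h arrays Trim13 alone remained, and 3 members passed without the 2 h arrays. With median centring in place of loess 4 members passed, 3 of them lower. Without the replicate block 1 passed, with slide as a random block 1, with slide as a fixed block 0 and with the groups compared alone 0. With scan day as a fixed block, whose day term rests on the MyD88-KO arrays alone, 14 passed. Of these 11 were higher and 3 lower, and 3 were also called without that block, Trim13, Trim16 and Trim47.

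No member passed in wild-type minus MyD88-KO or in wild-type minus TRIF-KO-labelled cells (0% of all genes in both, limma), with 11 and 6 members and 3185 and 1650 genes at an unadjusted p under 0.05. With 4, 8 and 16 h alone, where scan day and genotype cannot be told apart in the first of these comparisons, 5 members passed in it, against 2.79% of all genes, and 0 in the second, against 0.00911%. At 16 h, Trim30c was at -0.68 and -0.49 in wild-type and TRIF-KO-labelled cells against 4.39 in MyD88-KO cells. The untreated cells of the first pair of genotypes did not stay at their starting level, as the Cy3 channel shows.

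Untreated log2 levels of Trim30c were 9.62, 9.47, 9.53, 11.1 and 11.8 at 1, 2, 4, 8 and 16 h in wild-type cells and 9.97, 9.72, 9.18, 11.3 and 11.8 in TRIF-KO-labelled cells. In MyD88-KO cells they were 9.14, 8.71, 9.55 and 9.78 at 1, 4, 8 and 16 h, the 2 h array being left out because of its dyes, and in double-KO cells 8.21, 7.80, 7.52, 8.23 and 8.67. The difference between 16 h and 1 h was 2.20 in wild-type and 1.85 in TRIF-KO-labelled cells, against 0.64 in the MyD88-KO and 0.46 in the double-KO arrays. In the LPS channel, Trim30c was at 14.0, 12.5 and 11.1 at 4, 8 and 16 h in wild-type cells. It was at 9.4, 12.9 and 11.3 in TRIF-KO-labelled and at 13.4, 14.8 and 14.2 in MyD88-KO cells. Both channels thus moved in wild-type cells, and their parts in the late ratios were not tested. Untreated Ifnb1, which encodes interferon-beta, had an SD over time of 1.57 in wild-type and 1.89 in TRIF-KO-labelled cells (n = 5 each) against 0.74 in MyD88-KO cells (n = 4). Its LPS ratio ranged from -2.10 to 5.98 in wild-type cells and from 1.19 to 6.27 in MyD88-KO cells, so a ratio at 8 or 16 h sets LPS against an untreated level that itself moved. Untreated Trim21 likewise stood 1.96 higher at 16 h than at 1 h in wild-type and 0.95 higher in MyD88-KO cells, and Trim14 1.35 and 0.70 higher. Trim12c, Trim34a and Trim12a also had the larger 16 h minus 1 h difference in wild-type cells. It was 1.18, 1.14 and 0.51 there, against -0.57, 0.88 and 0.38 in MyD88-KO cells. Some other Trim5/Trim30 genes went the other way, with the larger rise in MyD88-KO cells. Trim30a rose by 0.81 there against 0.28 in wild-type, and Trim30d by 0.25 against 0.13. Trim30b rose by 0.92 against 0.64, and Trim34b by 1.68 against 1.17. The contrast seen for Trim30c was thus not shared by the whole group.

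On untreated arrays, 9 of the 14 tested members of the Trim5/Trim30 group were lower in double-KO than in wild-type cells and none was higher by the test. In double-KO minus wild-type 19 of 57 members passed, 7 higher and 12 lower, against 26.1% of all genes (15.4% higher, 10.6% lower), with a median of -0.04 beside 0.02. The chromosome 7 members that did not pass were Trim12c (-0.38), Trim30e-ps1 (-0.19), Trim5 (0.09), Trim68 (0.06) and Trim6 (0.01). Trim30c fell by 2.22 ± 0.24 (SE, 4.65-fold, limma adjusted p = 1.5e-05) and Trim30d by 1.79 ± 0.16 (SE, 3.46-fold, adjusted p = 1.7e-06) on the log2 scale. Trim30b fell by 1.27 ± 0.20 (SE, adjusted p = 0.00038), with signal above background on 2 of 5 double-KO arrays.

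Trim30d gave untreated log2 levels of 13.57, 12.82, 12.47, 13.58 and 13.70 in wild-type and of 11.30, 11.09, 11.04, 11.68 and 12.07 in double-KO cells. Trim30a gave 15.4, 14.7, 14.0, 15.2 and 15.7 in wild-type and 14.0, 13.6, 13.3, 13.9 and 14.3 in double-KO cells, and fell by 1.17 ± 0.10 (SE, limma adjusted p = 1.4e-06). Trim30b gave 8.17, 7.99, 7.99, 8.80 and 8.81 in wild-type and 7.05, 7.19, 6.90, 6.96 and 7.31 in double-KO cells. For Trim30c, Trim30d and Trim30b no double-KO array reached the lowest wild-type array. Trim34a fell by 1.15, Trim21 by 0.63, Trim12a by 0.59 and Trim34b by 0.55. Higher in double-KO cells were Trim16 (0.82 ± 0.09, SE, limma adjusted p = 1.6e-05), Trim37 (0.74), Trim11 (0.68), Trim32 (0.60) and Trim47 (0.52).

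In MyD88-KO minus wild-type, 9 of 57 untreated members passed against 10% of all genes, 4 higher (background 6.36%) and 5 lower (background 3.66%). Trim30c, Trim30d, Trim30a and Trim34a were lower by -1.16, -1.11, -1.10 and -0.85, and Trim3 by -0.42, while Trim47, Trim11, Trim45 and Trim2 were higher by 0.41 to 0.58. In TRIF-KO-labelled minus wild-type 1 of 57 passed, Trim2 (-0.54 ± 0.11, SE, limma adjusted p = 0.043), against 0.437% of all genes. Neither wild-type nor TRIF-KO-labelled cells share a slide or a scan day with double-KO cells, so batch and genotype cannot be told apart in either comparison, of ratios or of untreated levels, except through the MyD88-KO arrays. With scan day as a fixed block 8 members passed in double-KO minus wild-type and 1 in MyD88-KO minus wild-type. Without the replicate block 11 and 0 passed.

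**Figure D5:**
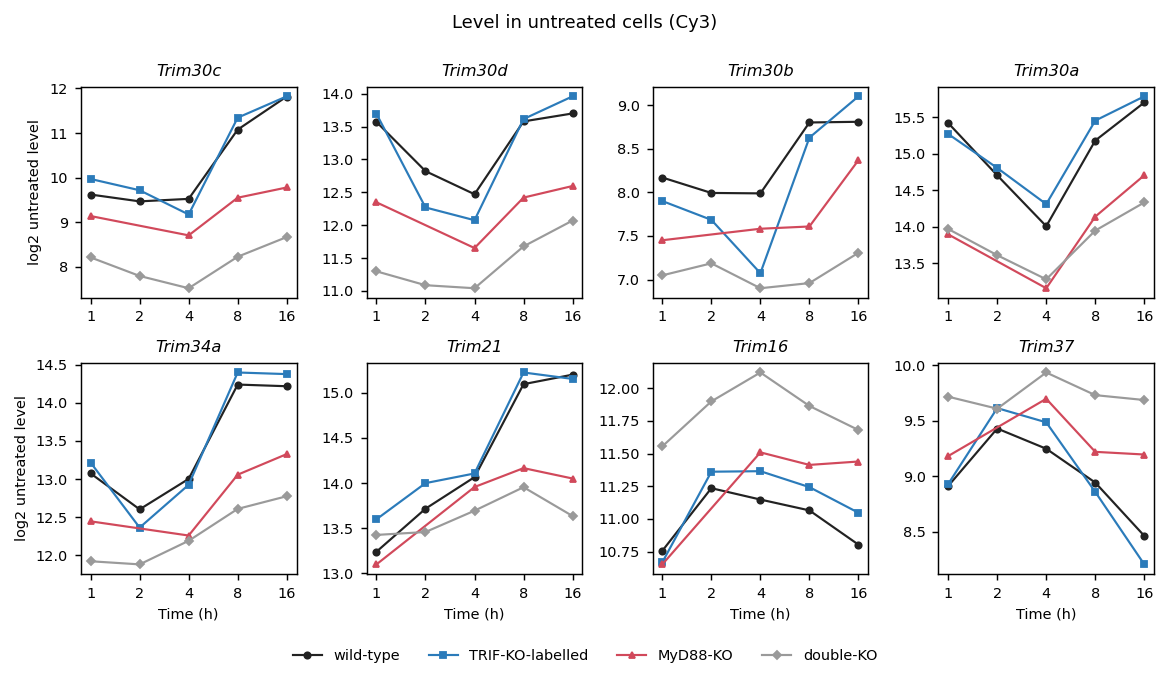
Log2 level in untreated cells (y, Cy3 channel after normalization) at 1, 2, 4, 8 and 16 h (x, equal spacing) for 8 members, 1 array per point, by genotype, without the dye-swapped MyD88-KO 2 h array. Trim30c rises at 8 and 16 h in wild-type and TRIF-KO-labelled cells (11.8 at 16 h in both) and is lowest in double-KO cells (8.67 at 16 h).

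A list of members with a known part in innate signalling held 17 tested genes. It left out Trim30a, which passed in MyD88-KO minus double-KO and was counted with the chromosome 7 group. Of these 17, 2 passed in MyD88-KO minus double-KO (Trim13 higher, Trim32 lower) and 1 in TRIF-KO-labelled minus double-KO. In wild-type minus double-KO 6 passed, of which 5 were lower. The shares of all genes were 10.1%, 6.63% and 12% in that order. Trim26, which can degrade nuclear IRF3, had ratios of 0.25, 0.55, 1.70, -0.06 and -0.82 in wild-type and 0.06, 0.28, 1.52, 1.19 and 0.75 in MyD88-KO cells, and did not pass. Trim14 had 0.62 at 4 h in wild-type and -0.98 in TRIF-KO-labelled cells, with 0.52, 0.77 and 0.47 at 4, 8 and 16 h in MyD88-KO cells. Among 20 members with several kept probes, all probes had the same sign in 15 for MyD88-KO minus double-KO and in 12 for wild-type minus double-KO.

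Related genes outside the rule were read from lists. TRIM proteins under other names had 3 of 4 genes tested, and Mefv, which encodes pyrin, was the member called in every comparison with double-KO, with mean log2 ratios of 2.42 in wild-type, 2.43 in TRIF-KO-labelled and 1.98 in MyD88-KO cells. Of 17 interferon pathway genes 7 were higher in MyD88-KO minus double-KO (median 2.17), 0 in TRIF-KO-labelled minus double-KO (median 0.10) and 2 in wild-type minus double-KO (median 0.78), beside 5.73%, 3.56% and 5.91% of all genes. All 6 genes of the NF-kB arm were higher in each of the 3 comparisons. Of 13 tested partners and substrates of TRIM proteins 5, 1 and 2 were higher, in the same order and beside the same shares of all genes.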

How the data were processed

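The 20 arrays were 2-colour Agilent arrays, and per the file headers the authors deposited scanner output of Feature Extraction 10.10.1.1 with probe positions on mm9. The deposited intensity values were the mean and background signals of both channels, and the deposited log10 ratio of Cy5 over Cy3 served as an alternative. The deposited value table held that same log10 ratio, with a median of 0 and the swapped array not turned. Here, intensities were corrected with normexp (offset 50), normalized by loess within arrays, and outlier spots and control spots were left out (limma 3.58.1, R 4.3.3). Spots of a probe were averaged, probes well above background in a channel on at least 3 arrays were kept, and the kept probe with the highest mean signal stood for its gene. Channel levels came from Aquantile normalization after loess. Ratios were fitted with genotype and time point, over all 20 arrays, and untreated levels over the 19 arrays with untreated RNA in Cy3. P-values were adjusted by Benjamini-Hochberg over all 21963 genes, with a threshold of 0.05. The replicate number is the time point in the labels, which is where the pairing comes from. Deviations of same-time arrays correlated at 0.22 to 0.83 among the 3 signalling genotypes and at -0.20 to 0.13 with double-KO arrays. Named members were those past the threshold in a comparison of the single knockouts with each other or with double-KO, the 4 called untreated members with the largest differences, the 3 ends of each order, and the chromosome 7 and innate signalling lists. The members and lists were chosen with earlier results of these data known. The number of arrays limits the precision.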

Additional observations from a re-analysis of the deposited data

Results flagged for a closer look

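Among 56 sets of 4 or 5 arrays of 1 genotype, 1 array stood apart from the rest of its set: the double-KO 16 h array for Trim30a, with a log2 ratio of -0.46 against -0.13 to -0.05 on the other 4 arrays. Chance alone sets about 1 in 20 sets apart in this way.

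The LPS response differed between genotypes by a test of the difference itself for these members. In wild-type minus double-KO the log2 differences were 2.42 for Trim13, -1.25 for Trim16, -1.20 for Trim47, -1.11 for Trim59, -0.84 for Trim2, -0.79 for Trim32, -0.77 for Trim24, -0.73 for Trim65, -0.45 for Trim5 and -0.43 for Trim33. In TRIF-KO-labelled minus double-KO they were 3.11 for Trim13 and 1.49 for Trim36. In MyD88-KO minus double-KO they were 2.99 for Trim30c, 2.55 for Trim13, 1.51 for Trim30a, 1.51 for Trim30d, 0.69 for Trim69, -1.35 for Trim16, -1.24 for Trim47, -0.79 for Trim32 and -0.66 for Trim45.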

How the results depend on the processing

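Counts of called members are given for the comparisons with double-KO, first of wild-type, then of TRIF-KO-labelled, then of MyD88-KO cells (10, 2 and 9), unless a comparison is named. Without the replicate block they were 1, 1 and 1, with slide as a random block 1, 1 and 1, with slide as a fixed block 0, 0 and 0, and with the groups compared alone 0, 1 and 0. With scan day as a fixed block TRIF-KO-labelled gave 6 and MyD88-KO 23, and with a dye term these gave 1 and 15. The day term rests on the MyD88-KO arrays alone and cannot be separated from their change over time. Median centring in place of loess gave 4 in wild-type. In TRIF-KO-labelled cells, scaling of log ratios gave 9, no filter on dim probes 1, and signal above background on all 20 arrays 4. With scan day fixed, wild-type gave 14, of which 11 were higher, and with scaling it gave 7, 2 of them higher, against 1 of 10 in the reported fit. Leaving out 1 time point gave 1 to 12, 1 to 8 and 0 to 20, and 0 to 5 in TRIF-KO-labelled minus MyD88-KO and 0 to 1 in wild-type minus MyD88-KO. Without the swapped array the counts were 10, 1 and 15. Settings chosen after seeing the data gave 1, 0 and 0 with 1, 2 and 4 h alone. With 4, 8 and 16 h alone they gave 12, 8 and 21, and 15 and 5 in TRIF-KO-labelled and wild-type minus MyD88-KO, and scan day 2 alone gave 22 in MyD88-KO minus double-KO. For untreated levels set against wild-type (TRIF-KO-labelled 1, then MyD88-KO 9, then double-KO 19), the counts were 0, 0 and 11 without the replicate block, 0, 6 and 8 with slide fixed, 0, 5 and 11 with slide random, and 2, 1 and 8 with scan day fixed. Leaving out 1 time point gave 0 to 1, 4 to 10 and 14 to 22.

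Signs turned in these cases, none of which passed the test, and the cause was not tested. With slide as a fixed block, wild-type minus double-KO was -1.52 for Trim13, 0.68 for Trim2, 1.06 for Trim24, 0.99 for Trim32, 0.16 for Trim33, 0.85 for Trim5 and 0.56 for Trim59, MyD88-KO minus double-KO was 0.16 for Trim32, and untreated Trim9 was 0.22 in double-KO minus wild-type. TRIF-KO-labelled minus MyD88-KO, which had no call, turned with slide fixed for Trim13 (-0.07), Trim16 (-0.11), Trim47 (-0.43) and Trim69 (0.24), with scan day fixed for Trim16 (-0.37), Trim45 (-0.08) and Trim47 (-0.54), and with scaling for Trim16 (-0.09) and Trim47 (-0.0032). It turned with 1, 2 and 4 h alone for Trim16 (-0.02) and Trim47 (-0.17), and on scan day 1 alone for Trim16 (-0.23), Trim30a (0.14), Trim30c (0.05), Trim45 (-0.03) and Trim47 (-0.37). Depth is not defined for arrays; signal over background limited Trim30b and Trim69 in double-KO cells.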
